A study of Bos taurus with 60 samples.

Results

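The miRNAs described here are the cattle miRNAs that miRBase numbers from bta-miR-2286 to bta-miR-2489. They were taken by name: every listed mature miRNA whose number lies in that range, with any letter or arm suffix. This gave 241 members, over 200 distinct numbers, of the 1030 known mature miRNAs listed in the files. Their small RNA was sequenced from the liver of 60 steers, with 1 library per steer and 20 steers each of Angus, Charolais and Kinsella Composite (KC). Angus and Charolais steers were purebred, and KC steers came from bulls of several breeds crossed to a hybrid dam line. In each breed, 6 steers carried the label low-RFI and 6 the label high-RFI, and 8 carried no RFI group; a steer named below by breed and number alone is 1 of these 8. RFI is residual feed intake, the feed eaten above or below that predicted from growth and body size, so that low-RFI steers are the efficient ones. All 60 were castrated males that finished on a shared diet, which held barley as grain (75%) and as silage (20%) with a rumensin pellet (5%). Liver was cut from the right lobe. The breeds were slaughtered at different mean ages according to the methods of the study, so breed and age at slaughter cannot be told apart in any breed comparison.

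A miRNA is cut from a hairpin precursor, and either strand of the hairpin's stem can become a mature miRNA, named 5p or 3p after its arm. The mature strand sits in an Argonaute protein and guides it to messenger RNAs, mostly through its seed, bases 2 to 8, which pairs with sites in the target and lowers its output. A number in a miRNA name gives only the order of registration, so members with neighbouring numbers need not share sequence, gene or function. Letters after a number mark near-identical copies, and most of these members are known from cattle or their relatives alone.

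Mature sequences are those of miRBase as the study lists them for the miRNAs it found expressed; 61 members had one. Of the 61 members expressed by the rule used here, 58 were among them. The sequences below belong to the 10 most abundant members and to the other members that the comparisons turn on, with the seed in capitals.
bta-miR-2419-5p: aUCGCAUCaacacucgucuguu
bta-miR-2478: gUAUCCCAcuucugacacca
bta-miR-2336: cUAACCGUaacuuugaagugcu
bta-miR-2299-5p: aCUGGAUUcauuucucugaaa
bta-miR-2415-3p: cCAGGCCUgcuggaccgacgc
bta-miR-2332: cGGUUUAAggucuuggagacaaag
bta-miR-2484: gAGCUAUGaugacuuugauugcau
bta-miR-2411-3p: gCUGAACUgucuuacucccacaucc
bta-miR-2435: aAACUCGAaugaacucuuuggc
bta-miR-2399-5p: cUUUCUGUagcuguuggaacua
bta-miR-2411-5p: uGGAGUGAcugucagaugcagcca
bta-miR-2483-5p: cGUCAACCauccagcuguuuga
bta-miR-2431-3p: cACCCCCAcuugcaugacccuga
bta-miR-2346: aCUGAUGUgaaggugguuuggc
bta-miR-2419-3p: cAGGCGGGugcuaauacgauca
bta-miR-2319a: cUACUCUGuauuaggcacuuag
bta-miR-2319b: uACUCUGUauuaggcacuuag

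Seeds were compared among the 588 miRNAs with a sequence, 61 of them members and 527 outside the range; the remaining members, some lettered copies among them, were not compared. No 2 of the 61 shared a seed, and 56 (91.8%) shared it with none of the 588, beside 61.5% of the 527. The 5 that did share a seed were bta-miR-2411-3p with bta-miR-345-3p, bta-miR-2435 with bta-miR-2284t-3p, bta-miR-2403 with bta-miR-425-3p, bta-miR-2319a with bta-miR-6524, and bta-miR-2312 with 10 members of the large bovine miR-2285 family. Within 1 mismatch over at least 18 bases, bta-miR-2312 also matched bta-miR-2285e and bta-miR-2285u, and bta-miR-2319a matched bta-miR-2319b, whose hairpin genes lie next to each other. Reads of these members can be shared with their near copies, so their counts are uncertain. The mature strands of the 61 were 20 to 25 bases long with a median of 22, as were the others at the median. Their median GC content was 52.2%, beside 43.5% in the others. A 3′ end of CCA, the tail that mature transfer RNAs carry, was found in 3 of 61 members (bta-miR-2478, bta-miR-2411-5p and bta-miR-2370-3p) and in 3 of the 527 others. The authors removed reads that matched transfer RNAs before counting. bta-miR-2478 was the member with the second highest level, and whether its reads come from a transfer RNA was not tested.

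Most members were not detected or barely detected in liver. A total of 97 members had no count in any steer, which allows each a level of up to 0.0113 CPM (CPM is a count as a share of its library's total, multiplied by 1e+06) when 3 counts are set against all reads of the 60 libraries. Another 83 had some counts but stayed under 10 in every breed. By the study's rule of at least 10 counts over 20 steers, the expressed members numbered 43 for Angus, 47 for Charolais and 57 for KC, and 61 (25.3%) were expressed in at least 1 breed, beside 56.4% of all listed miRNAs. The order of the breeds followed their sequencing depth. Library totals ran from 1930859 to 5703119 counts in Angus, from 2237959 to 6019099 in Charolais and from 3637007 to 6759381 in KC. After every library was thinned at random to the lowest total, the numbers were 38, 37 and 38. The 10 members expressed only in KC averaged at most 0.0935 CPM over the 60 steers. In a single library 3 counts stood for 0.444 to 1.55 CPM, so for members this low a breed difference in detection was not resolvable at this depth. Such limits cover counting error only.

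The expressed members were low even among liver miRNAs. In each steer all members together made up 0.0104% to 0.0348% of the counts, or 104 to 348 CPM with a median of 180. No member averaged above 100 CPM, 4 averaged between 10 and 100, 17 between 1 and 10, and 15 had at least 1 count in every steer. The 10 most abundant members held 72.3% to 92.7% of a steer's member counts. The 4 miRNAs set as liver markers, bta-miR-122, bta-miR-192, bta-miR-194 and bta-miR-885, were detected in every breed, and their summed level was lowest at 175734 CPM in Charolais steer 16.

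Members tested between groups were those with at least 1 CPM in enough steers, and their levels are given as CPM after TMM scaling, which corrects library totals for differences in composition. The most abundant was bta-miR-2419-5p, ranked 117 of all listed miRNAs. Its lowest, median and highest levels were 25.5, 46.5 and 158 CPM in Angus, 12.7, 69.3 and 219 in Charolais, and 2.26, 44.7 and 189 in KC. The breed ranges overlapped. bta-miR-2478 had 15.8, 26.9 and 45.2 CPM in Angus, 18.1, 25.4 and 46.5 in Charolais, and 17.8, 24.2 and 39.8 in KC. bta-miR-2336, whose hairpin lies outside other annotated genes, had 15.6, 23.2 and 34.6 CPM in Angus, 17.9, 22.5 and 30.3 in Charolais, and 18.4, 22.5 and 26.9 in KC. Both varied less across steers than bta-miR-2419-5p. bta-miR-2299-5p, inside the span of B3GLCT, a gene for a glucosyltransferase that modifies proteins with thrombospondin repeats, averaged 12.1 ± 2.30 CPM for Angus, 11.6 ± 1.95 for Charolais and 11.6 ± 1.41 for KC (SD over 20 steers).

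**Figure D1:**
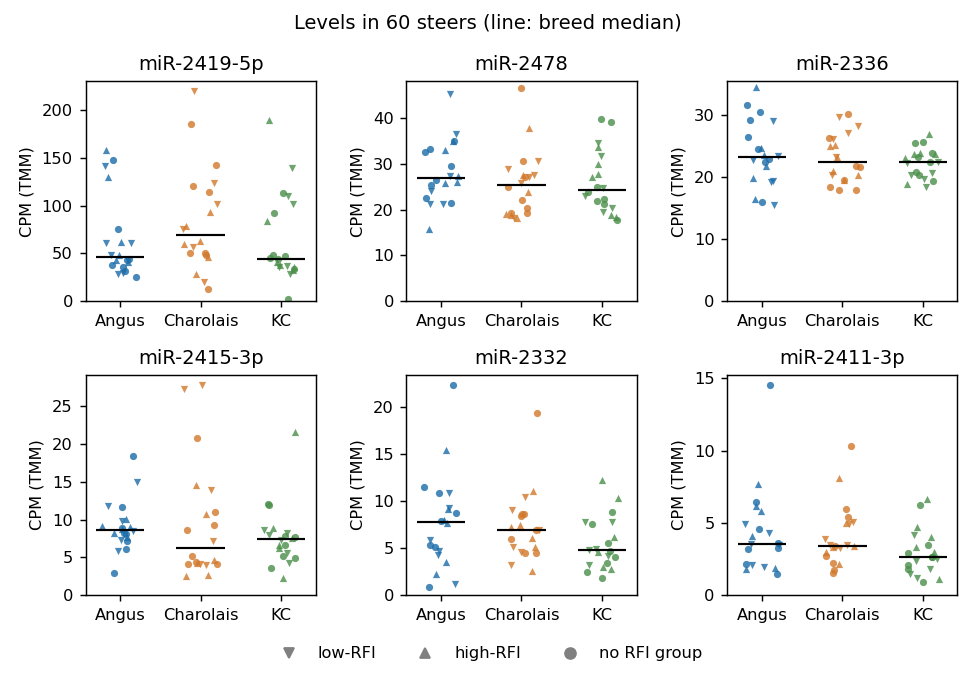
Levels of 6 members in each of the 60 steers, in TMM-scaled CPM on a linear axis from 0, by breed on the x axis; each point is 1 steer, its shape gives the RFI group and the line is the breed median. miR-2419-5p spreads from 2.26 to 219 CPM, while miR-2336 stays between 15.6 and 34.6 CPM, and the breeds overlap in all 6 panels.

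The next members formed a descending series. bta-miR-2415-3p had a mean of 8.82 CPM over the 60 steers, bta-miR-2332 of 6.83, bta-miR-2484 of 5.98, bta-miR-2411-3p of 3.8, bta-miR-2435 of 3.43 and bta-miR-2399-5p of 2.94. Neighbours in this series had overlapping ranges over the steers: bta-miR-2415-3p ran from 2.25 to 27.9 CPM and bta-miR-2332 from 0.890 to 22.3 CPM. Hairpin genes were matched by name for 59 of the 61 expressed members in a RefSeq gene table of a later assembly, ARS-UCD2.0, which gave 53 distinct hairpins. Of these, 43 lay inside the span of a protein-coding gene, 2 in the span of a long non-coding RNA alone, and 8 outside every other gene. bta-miR-2332 lay in UTP6, whose protein takes part in ribosomal RNA processing, bta-miR-2411 in UBAP2L, bta-miR-2399 in RBPMS, an RNA-binding protein gene, and bta-miR-2346 in ASPSCR1, whose protein tethers the glucose transporter GLUT4. Only 3 hairpins had another miRNA gene within 10 kb. They were those of bta-miR-2300b-3p and bta-miR-2319a, next to their own lettered copies, and of bta-miR-2443, next to let-7a-3, let-7b and miR-3596.

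The arms of a hairpin were used unequally. Of the 34 hairpins with both arms listed, 16 had neither arm expressed, 6 had the 5p arm alone, 5 the 3p arm alone and 7 both. bta-miR-2461 had 367 counts of its 3p arm and 0 of its 5p arm over the 60 steers. bta-miR-2415 had 2278 counts of 3p and 9 of 5p, and bta-miR-2299 had 3139 of 5p and 16 of 3p. bta-miR-2411 was more even, with 949 counts of 3p and 384 of 5p. Its log2 ratio of 5p to 3p, with 0.5 added to each count, averaged -1.21 ± 1.1 for Angus, -1.29 ± 0.73 for Charolais and -1.12 ± 1.05 for KC (SD over 20 steers). For bta-miR-2419 the averages were 7.22 ± 1.66, 7.10 ± 1.93 and 7.08 ± 2.14, but 24 steers had no 3p count, and their ratios are set by the added 0.5 rather than measured. Neither ratio passed limma's F test between breeds over the 30 hairpins with both arms tested (adjusted p = 0.969 for both, with unadjusted p = 0.858 for bta-miR-2411 and 0.969 for bta-miR-2419), whereas 4 of the 30 hairpins (13.3%) did.

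Within that average, bta-miR-2419 differed sharply from steer to steer. Over the 60 steers its 5p arm had 18574 counts and its 3p arm 174, and 24 steers had no 3p count. These 24 steers lay between 28.5 and 75.9 CPM of the 5p arm, and 12 other steers in that interval had 3p counts. The 4 steers below it all had 3p counts, and so did all 20 steers above it. The lowest of all was KC steer 4, with 16 counts of 5p and 12 of 3p. Charolais steer 16 had 49 and 7 counts, Charolais low-RFI steer 17 had 75 and 13, and Angus steer 9 had 79 and 10. Their ratios of 5p to 3p counts ran from 1.33 to 7.90. The other 32 steers with a 3p count ran from 15.4 to 695, and the 24 steers without one had ratios of at least 36 to at least 96.3 when 3 counts per library are set for the 3p arm. They came from all 3 breeds. These steers were singled out after their values were seen, and no test was made of them. Each of these 3p levels rests on 7 to 13 counts.

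**Figure D2:**
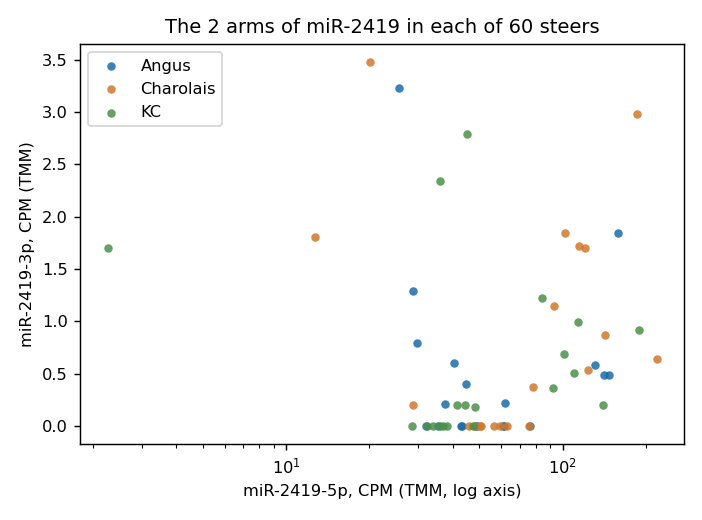
Level of the 3p arm of miR-2419 (y axis, linear) against that of its 5p arm (x axis, log scale), both in TMM-scaled CPM, with 1 point per steer and colour for breed. Steers without a 3p count lie between 28.5 and 75.9 CPM of the 5p arm, and the 4 steers below and the 20 above all have 3p counts.

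How much members vary between steers was read from edgeR's biological coefficient of variation, the spread of true levels around the breed mean as a fraction of it. Among the 425 miRNAs in the breed fit, bta-miR-2419-3p had the largest, 1.31, and bta-miR-2419-5p the 11th largest, 0.63, where the median was 0.23. bta-miR-2483-5p (0.56), bta-miR-2415-3p (0.50), bta-miR-2332 (0.50) and bta-miR-2411-3p (0.45) also ranked within the top 38. At the other end, bta-miR-2376 had 0.087, bta-miR-2299-5p 0.10 and bta-miR-2310 0.11. The members thus covered nearly the whole range of spread seen in liver miRNAs.

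No member passed the test of breed. Of 25 members in the 60-steer fit, 0 passed an adjusted p of 0.05 in the edgeR test of the 3 breeds, whereas 83 of all 425 miRNAs did (19.5%). DESeq2 and edgeR's likelihood-ratio test also gave 0 at an adjusted p under 0.05, and in the quasi-likelihood test 1 member had an unadjusted p under 0.05. In all 25 members the ranges of the breeds overlapped. In pairs of breeds, with a fold change above 1.5 asked for as well, 0 of 25 members were called between Charolais and Angus beside 0.941% of all miRNAs. Between KC and Angus it was 0 of 25 beside 4.71%, and between KC and Charolais 0 of 25 beside 6.12%. Unadjusted p-values under 0.05 came for 1, 2 and 2 members in these pairs. DESeq2 and the likelihood-ratio test called 0 members in the first and second pair and 1 in the third, bta-miR-2431-3p. Members were measured less precisely than most miRNAs. The median SE of their log2 fold changes was 0.24, 0.24 and 0.23 in these pairs, beside 0.14 over all miRNAs in each. Their median absolute log2 fold changes were 0.16, 0.22 and 0.19, beside 0.14, 0.16 and 0.15. The absence of calls therefore does not show that members differed less between breeds.

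**Figure D3:**
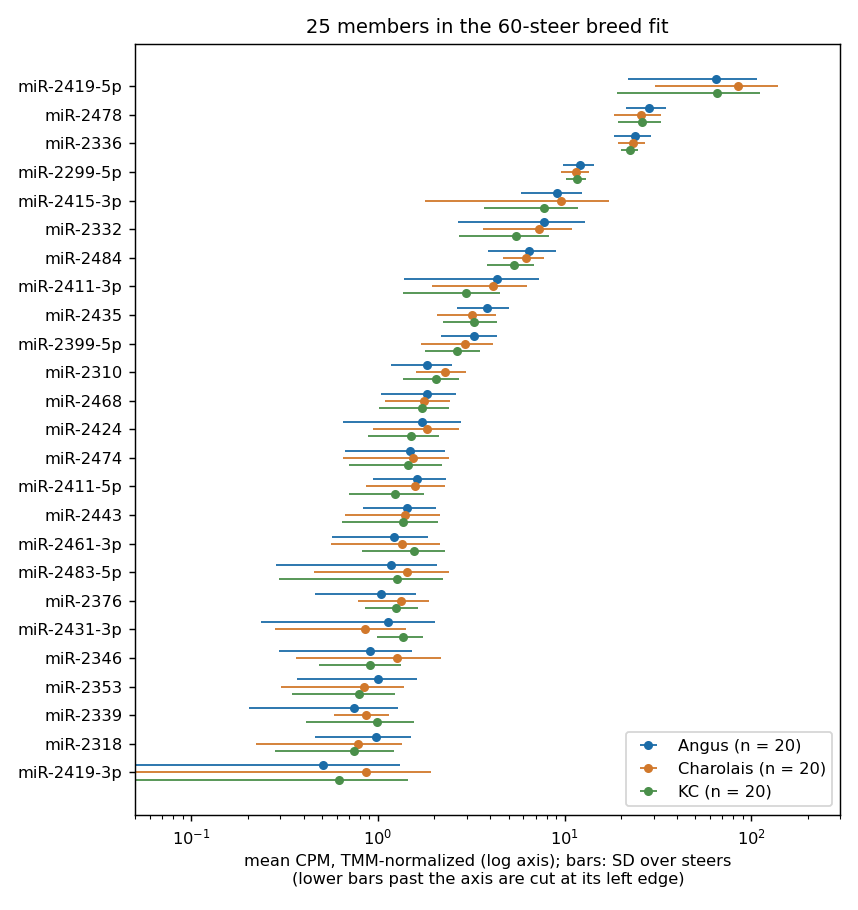
Mean level of the 25 members in the breed fit, in TMM-scaled CPM on a log axis, for Angus, Charolais and KC; points are means of 20 steers and bars the SD, cut at the axis where the lower bar passes it. The means run from 84.5 CPM for miR-2419-5p in Charolais to 0.508 CPM for miR-2419-3p in Angus, and the ranges of the breeds overlap for all 25 members.

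The members nearest to a breed difference were both arms of bta-miR-2411 and bta-miR-2431-3p. bta-miR-2411-3p had lowest, median and highest levels of 1.48, 3.55 and 14.6 CPM in Angus, 1.5, 3.42 and 10.3 in Charolais, and 0.893, 2.63 and 6.63 in KC. KC steers were lower in the middle of the range and overlapped the other breeds. Its log2 fold change was -0.53 ± 0.24 (SE) for KC over Angus, at an adjusted p of 0.126, and -0.48 ± 0.23 for KC over Charolais, at an adjusted p of 0.153. bta-miR-2411-5p was at -0.42 ± 0.19 for KC over Angus (adjusted p = 0.145). bta-miR-2431-3p averaged 1.13 ± 0.89 CPM for Angus, 0.85 ± 0.57 for Charolais and 1.37 ± 0.38 for KC (SD over 20 steers). Its log2 fold change for KC over Charolais was 0.63 ± 0.26 at an adjusted p of 0.0865, and 0.65 and 0.62 by DESeq2 and the likelihood-ratio test, which called it. bta-miR-2310 was the first member between Charolais and Angus, at 0.33 ± 0.16 (adjusted p = 0.255).

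RFI groups were compared within each breed to ask whether feed efficiency went with the level of a liver miRNA. The study's cutoffs were used, an unadjusted p under 0.05 with a fold change above 1.5. The main test was edgeR's quasi-likelihood F test, where the study reports a likelihood-ratio statistic. The study called bta-miR-2483-5p and bta-miR-2411-3p in KC, and bta-miR-2419-5p, bta-miR-2346 and bta-miR-2415-3p in Charolais. In its sequencing data bta-miR-2419-5p and bta-miR-2415-3p also passed a stricter cutoff, corrected for multiple tests. By its qPCR both were higher in low-RFI Charolais, but neither t test reached p under 0.05. The study also reports high correlations between qPCR and sequencing levels for both. Why the calls below differ from the study's was not tested. In Angus, 0 of 19 members were called beside 2.41% of all 373 miRNAs, and in KC 0 of 22 beside 1.82% of 385. No member in either breed had an unadjusted p under 0.05, and DESeq2 and edgeR's likelihood-ratio test called 0. In Charolais, 2 of 20 members were called, beside 1.88% of 373. The likelihood-ratio test called the same 2, and DESeq2 called bta-miR-2346 alone. Across breeds, with 36 steers in 1 fit, 0 of 27 were called beside 0.704% of 426, and DESeq2 and the likelihood-ratio test called 0. bta-miR-2411-5p alone had an unadjusted p under 0.05 there, with a log2 fold change of -0.42 ± 0.19 (SE; adjusted p = 0.956). In the test of whether the fold change of low-RFI over high-RFI differed between breeds, 0 of 27 members passed an adjusted p of 0.05, beside 0% of all 426, and 0 members had an unadjusted p under 0.05. The smallest p among members in that interaction test was that of bta-miR-2415-3p, 0.0591 unadjusted and 0.994 adjusted, and DESeq2 and the likelihood-ratio test called 0 members. No member in any breed reached an adjusted p of 0.05, and in each of the 61 comparisons of a member within a breed the low-RFI and high-RFI steers overlapped.

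**Figure D4:**
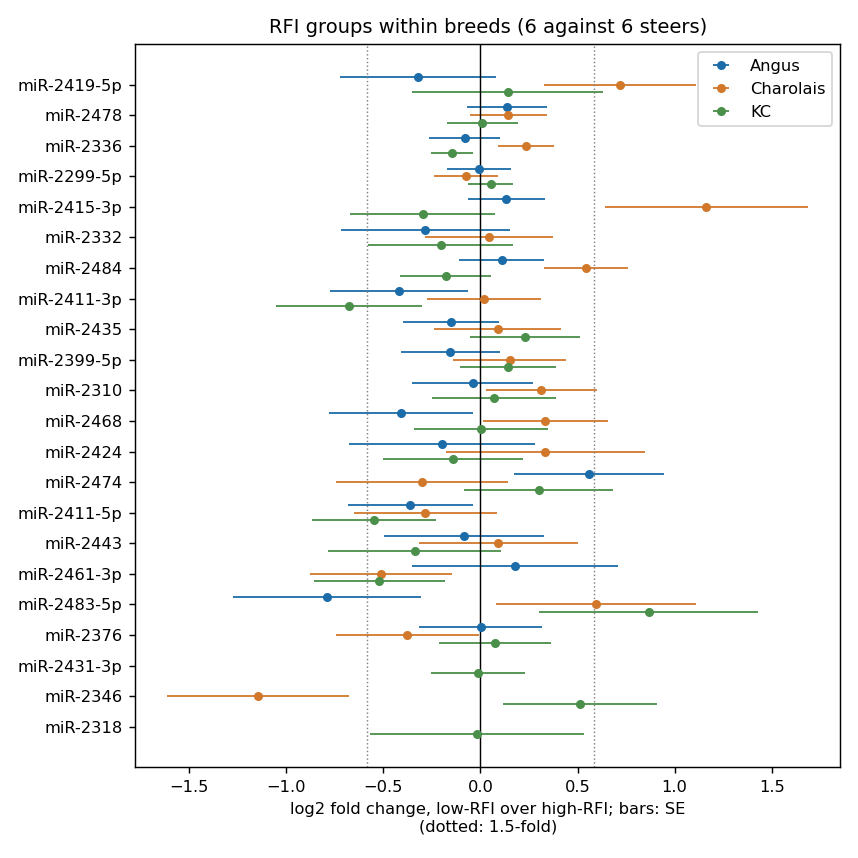
Log2 fold change of low-RFI over high-RFI steers for the members tested in each breed, 6 against 6 steers; points are edgeR estimates, bars the SE, colour the breed, and dotted lines mark a 1.5-fold difference. miR-2415-3p, above 1 on this scale, and miR-2346 at -1.15 in Charolais lie farthest from 0.

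In Charolais the 2 called members went in opposite directions. bta-miR-2346 had lowest, median and highest levels of 0.202, 0.601 and 2.15 CPM in low-RFI steers and 0.968, 1.66 and 3.04 in high-RFI steers. Of the 6 low-RFI steers, 1 exceeded the median of the high-RFI group, and 5 held 3 counts or fewer while 0 high-RFI steers did. The log2 fold change was -1.15 ± 0.47 (SE), at an edgeR p of 0.0257 and an adjusted p of 0.752, and the exact two-sided permutation test over 924 relabelings gave p = 0.0346. The call was lost when low-RFI steer 4, 7, 14 or 15 or high-RFI steer 13 was left out (-0.92, -1.06, -0.99, -1.06 and -0.94). In KC the same member was at 0.51 ± 0.40 (adjusted p = 0.990), and in Angus it was below the filter on low levels. bta-miR-2484, inside the span of the protein-coding gene LOC112445178, was at 0.54 ± 0.22 in Charolais with the smallest p of any member there, 0.0230, but did not reach a 1.5-fold difference; it did, and was called, without low-RFI steer 1 (0.70), high-RFI steer 5 (0.60) or high-RFI steer 9 (0.62). Its low-RFI steers ran from 3.56 to 9.16 CPM with a median of 7.6, and its high-RFI steers from 4.06 to 6.29 with a median of 4.88.

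bta-miR-2415-3p had lowest, median and highest levels of 4.03, 10.7 and 27.2 CPM in low-RFI Charolais and 2.52, 4.28 and 14 in high-RFI Charolais. The groups overlapped, and 4 of the 6 low-RFI steers exceeded the median of the high-RFI group. Its log2 fold change was 1.164 ± 0.52 (SE), at an edgeR p of 0.0406 and an adjusted p of 0.865, and the exact two-sided permutation test gave p = 0.160. The smallest p that test can give is 0.00216. By DESeq2 (1.13) and with sire as a random effect (1.08) the log2 fold change was of like size but was not called. Leaving out any of 7 steers lost the call: low-RFI steers 1, 7 and 14 (1.19, 0.89 and 0.85) and high-RFI steers 6, 13, 19 and 20 (1.07, 1.02, 0.99 and 1.1). In Angus its low-RFI steers had a median of 9.34 CPM and its high-RFI steers 8.98, and in KC 7.91 and 7.08, with log2 fold changes of 0.13 and -0.30.

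With the filter on low levels and all steers of a breed, no other member was called between RFI groups. bta-miR-2419-5p had lowest, median and highest levels of 29.2, 56.1 and 149 CPM in low-RFI and 41.4, 53.9 and 161 in high-RFI Angus, with a log2 fold change of -0.32 ± 0.40 (SE). In Charolais it had 20.1, 88.7 and 212 CPM against 28.3, 59.8 and 91.8 (0.72 ± 0.39, not called), and in KC 30.1, 73.2 and 142 against 33.1, 41.9 and 187 (0.14 ± 0.49). The groups overlapped in each breed, and its low-RFI median was the higher one in all 3. In Charolais it was called when the filter was left off (0.74), and without low-RFI steer 7 (0.88) or low-RFI steer 17 (0.95). Without the filter bta-miR-2419-3p (1.78 ± 0.83) and bta-miR-2389 (2.42 ± 1.13) were also called in Charolais. So were bta-miR-2398 (-2.56 ± 1.19) and bta-miR-2447 (2.78 ± 1.16) in Angus, and bta-miR-2457 (-1.21 ± 0.57) in KC. Their adjusted p by edgeR was 0.809 to 0.830. These calls rest on few counts: bta-miR-2389 and bta-miR-2398 stayed under 10 counts in every breed, and bta-miR-2447 averaged 0.0825 CPM over the 60 steers. bta-miR-2483-5p, from a hairpin in TENM1, a gene for a teneurin of the cell surface, was at -0.79 ± 0.48 in Angus and 0.87 ± 0.56 in KC. bta-miR-2411-3p was at -0.68 ± 0.37 in KC, with 1.23, 2.18 and 4.37 CPM in low-RFI and 1.09, 3.75 and 6.52 in high-RFI steers, and an exact two-sided permutation p of 0.169. Leaving out a single steer also brought calls in the other breeds. In Angus these were bta-miR-2419-5p without low-RFI steer 2 (-0.79) and bta-miR-2483-5p without high-RFI steer 15 (-1.02). In KC they were bta-miR-2411-5p without low-RFI steer 1 (-0.71) or high-RFI steer 11 (-0.69), bta-miR-2461-3p without low-RFI steer 3 (-0.75), and bta-miR-2411-3p without low-RFI steer 17 (-1.01) or high-RFI steer 20 (-0.91).

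The 2 highest low-RFI Charolais steers shared a sire. The labels give the sire of each steer, and Charolais had 5 sire families of 2 to 8 steers. The 3 steers of family 3, 2 of them low-RFI and 1 without a group, had bta-miR-2415-3p at 20.8, 27.3 and 27.9 CPM, while the other 17 Charolais steers ran from 2.55 to 14.6 with a median of 4.62. Without its 2 low-RFI steers the log2 fold change between the RFI groups was 0.15 ± 0.51 (adjusted p = 0.991) and 0 members were called in Charolais, with bta-miR-2346 at -0.91 ± 0.54. Family 3 held no high-RFI steer, so RFI group and sire cannot be told apart within it. The same holds for most Charolais families. Only family 1 held both groups, with 1 low-RFI and 4 high-RFI steers. Of the steers with an RFI group, families 2 and 4 held low-RFI and family 5 high-RFI steers alone. RFI group and sire are therefore largely tied in the Charolais comparison, also without family 3. An edgeR test of the 4 Charolais families of at least 3 steers, made after this pattern was seen and so no independent evidence of it, gave 1 of 20 members, bta-miR-2415-3p, an adjusted p of 0.0445, beside 0.539% of all 371 miRNAs. DESeq2 gave it 0.000323 and edgeR's likelihood-ratio test 0.000293, and both also called bta-miR-2346, whose adjusted p was 0.0917 in the first test. Over all 371 miRNAs, DESeq2 called 10 and the likelihood-ratio test 11, beside 2 in the first test. The call of bta-miR-2415-3p was lost when any steer of family 3 was left out, with adjusted p of 0.105 without low-RFI steer 7, 0.185 without low-RFI steer 14 and 0.0533 without the steer 12 that has no RFI group. The other miRNA called between families in the first test was bta-miR-144, a red blood cell miRNA. In family 3 it had 26.3 to 30.7 CPM and in the other Charolais steers 7.16 to 36.8, and the 3 red blood cell markers summed to 6480 to 9266 CPM there and 3342 to 11410 in the others, none of them at 0. Their part in the level of bta-miR-2415-3p was not tested. In Angus, 0 of 20 members passed an adjusted p of 0.05 between 3 families (0% of 369 miRNAs), and in KC 0 of 24 between 2 families (0% of 393). These are edgeR counts, and 0 members in either breed had an unadjusted p under 0.05; no other tool was run on them.

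**Figure D5:**
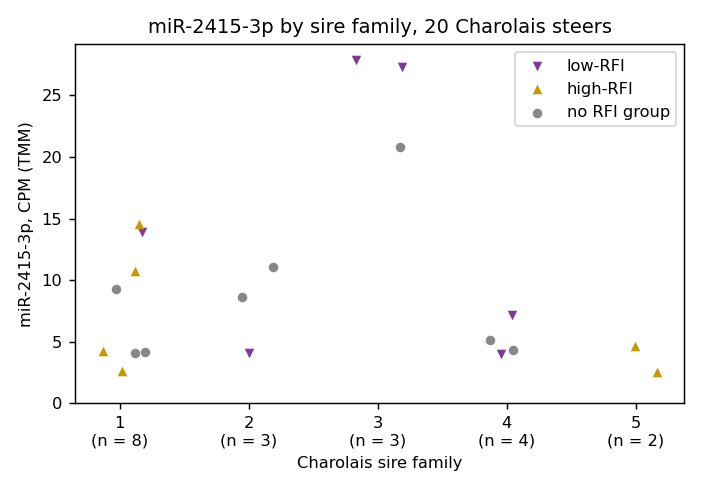
Level of miR-2415-3p in TMM-scaled CPM (y axis, linear from 0) in the 20 Charolais steers by sire family (x axis), with 1 point per steer and colour and shape for the RFI group. The 3 steers of family 3 lie between 20.8 and 27.9 CPM, above all other Charolais steers.

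Some members varied together over steers. All 300 pairs of the 25 tested members were correlated on TMM-scaled log2 CPM over the 60 steers, after a high pair was noticed. bta-miR-2332 and bta-miR-2411-3p, from hairpins in UTP6 and UBAP2L, had Pearson r = 0.71 and Spearman rho = 0.66. Both had a permutation p of 1e-05, the smallest that 100000 resamples can give, and 0.003 after adjustment over the 300 pairs. Within Angus, Charolais and KC, r was 0.83, 0.51 and 0.70. Without the 2 steers farthest from the median of bta-miR-2332, r was 0.72, and without the 2 steers highest in both members, Angus steer 20 and Charolais steer 16, r was 0.65. These 2 libraries had other marks: Angus steer 20 had the lowest total of the 60, and Charolais steer 16 the lowest summed liver markers. Charolais steer 16 was that high only after TMM scaling. Before it, this steer had 12.46 CPM of bta-miR-2332 and 6.65 of bta-miR-2411-3p. Angus high-RFI steer 14 was higher in both, at 15.75 and 7.87 CPM. Correlations before scaling were not computed. bta-miR-2484 was correlated with bta-miR-2411-3p (r = 0.52, permutation p = 6e-05, adjusted 0.009; rho = 0.42, permutation p = 0.00092, adjusted 0.092) and with bta-miR-2332 (r = 0.48, permutation p = 0.0001, adjusted 0.01; rho = 0.44, permutation p = 0.0005, adjusted 0.075), but within Charolais these were 0.10 and 0.01. Without the 2 farthest steers they were 0.36 and 0.52. The arms of bta-miR-2411, which come from a single hairpin, had r = 0.02 and rho = 0.02 with permutation p of 0.897 and 0.906 (adjusted 0.982 and 0.998), and r was 0.09 without the 2 farthest steers and -0.38, 0.39 and -0.23 within Angus, Charolais and KC. Steers of 1 sire are related, so the 60 steers are not fully independent.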

How the data were processed

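Liver small RNA of 60 steers was analysed, with 1 library per steer and groups taken from the breed, RFI group and sire in the labels. The deposited values are raw read counts for each pair of mature miRNA and precursor, not normalized. To make them, the authors trimmed adaptors (cutadapt), kept reads of miRNA length, dropped those matching ribosomal, transfer, small nuclear or small nucleolar RNA, and ran miRDeep2 on the bovine miRNAs of miRBase and the UMD3.1 genome, with Bowtie 1.1.1 as aligner. Counts of a mature miRNA over several precursors were averaged, as in the study. Every breed lists 1155 pairs, and 52 more are listed for KC alone. Predicted miRNAs were not analysed here.

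For group comparisons edgeR 4.0.16 was used with limma 3.58.1 in R 4.3.3 (quasi-likelihood F test), on averaged counts rounded to whole numbers and scaled by TMM. All miRNAs of the table entered a fit, not members alone, if they had at least 1 CPM in 6 steers (RFI fits), in 10 steers (breed fit), or in 7, 9 and 5 steers (family fits of Angus, Charolais and KC). Adjusted p-values follow Benjamini and Hochberg over all miRNAs tested. Exact two-sided permutation tests and correlations used TMM-scaled log2 CPM with a prior count of 0.5. Fits were tested on simulated data. Alternatives used DESeq2 1.42.0. Other steps ran in Python 3.11.15 (numpy 2.4.6; scipy 1.17.1; pandas 2.3.3), and plots in matplotlib 3.10.9.

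Named in the text are the 10 members of highest mean CPM, those called or of smallest p in a fit, hairpins with both arms tested, members the study measured by qPCR or named, and near copies. Examples of detection, arms, spread and host genes were added after their values were seen. The members and the lists were chosen with earlier results of these data known. P-values set a difference against the spread between steers, some of which share a sire. The main RFI and breed fits held no sire term and treated steers as independent. Library totals ran from 1930859 to 6759381 counts.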

Additional observations from a re-analysis of the deposited data

Results flagged for a closer look

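Among the 144 sets of a member within a breed and RFI group, 22 held 1 steer that lay far from the others by Dixon's test at the 95% level. For normally distributed values chance alone gives about 1 in 20 such sets. These values are CPM on a linear scale, some of them from few or no counts, so that rate need not hold. The 22 sets can therefore not be read as an excess over chance. Values are TMM-scaled CPM unless said otherwise, with the range of the other steers of the set in parentheses, and no explanation was tested.

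Several were steers without an RFI group, named here by breed and number alone. bta-miR-2299-5p had 18.9 in Angus steer 7 (10.99 to 14.5) and 7.92 in KC steer 7 (11.2 to 14.1). Before TMM scaling Angus steer 7 had 12.7 CPM and lay within the others of its set (11.9 to 13.65). Angus steer 20 stood apart in bta-miR-2411-3p at 14.6 (1.48 to 6.42), in bta-miR-2419-5p at 147.5 (25.5 to 75.9) and in bta-miR-2484 at 15.5 (4.45 to 9.05). Charolais steer 16 stood apart in bta-miR-2332 at 19.4 (4.43 to 8.61) and in bta-miR-2478 at 46.5 (19.3 to 30.6). Before TMM scaling its bta-miR-2478 was at 29.9 CPM and lay within the others of its set (18.9 to 30.3). bta-miR-2346 had 3.26 in Charolais steer 2 (0.424 to 1.72), and bta-miR-2415-3p had 20.8 in Charolais steer 12 (4.12 to 11.03).

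bta-miR-2419-3p stood apart in 4 sets, at 3.23 in Angus steer 9 (0 to 0.485), 1.84 in Angus high-RFI steer 14 (0 to 0.603), 1.15 in Charolais high-RFI steer 6 (0 to 0.370) and 2.34 in KC low-RFI steer 14 (0 to 0.685). Its 5p arm had 141.5 in Angus low-RFI steer 2 (28.7 to 61.2) and 189 in KC high-RFI steer 20 (32.4 to 83.9), a steer that also had bta-miR-2415-3p at 21.6 (2.25 to 8.94).

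In Charolais, bta-miR-2399-5p had 5.85 in high-RFI steer 5 (1.91 to 3.33) and 5.4 in low-RFI steer 1 (2.67 to 3.44), where bta-miR-2484 had 3.47 (7.60 to 9.19). bta-miR-2411-5p had 3.90 in high-RFI steer 5 (1.34 to 1.90) and 0.268 in low-RFI steer 17 (1.57 to 2.05). bta-miR-2431-3p had 0.766 in KC low-RFI steer 17 (1.35 to 1.61).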

How the results depend on the processing

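Most results kept their size or side of the threshold under the alternatives: 110 of the recomputed counts stayed within 1.5 times and 44 did not. Counts that were 0 and stayed 0 are among the 110. The Charolais RFI count, the only RFI count with calls in the main fits, moved in most of its alternatives. Without low-RFI steer 1 it stayed at 2, but with bta-miR-2484 in place of bta-miR-2415-3p. Of the fold changes of named members, most of them not called in the main fits, 70 were unchanged in call, 4 lost and 2 gained it, and 0 reversed. Refits without a single steer are not among these fold changes. In such refits bta-miR-2346 kept its call in 7 of 12 and bta-miR-2415-3p in 5 of 12. With no filter on low counts, 2 of 99 members were called between RFI groups in Angus, beside 20 of all 719 miRNAs. In Charolais it was 5 of 98 members beside 18 of 712. Called members numbered 1 in KC and 5 over 36 steers. Between breeds they numbered 3 over all breeds, 2 for KC against Angus and 1 for KC against Charolais. The totals over all miRNAs are not given here for these fits, so their counts cannot be read as particular to members. For KC against Charolais, DESeq2 and the likelihood-ratio test each called 1 with the filter. In Charolais, 1 member was called between RFI groups by DESeq2 and with sire as a random effect, bta-miR-2346, and 1 with a mean of at least 2 CPM, bta-miR-2415-3p, while 0 were called without family 3, an alternative chosen after seeing the data. Leaving out each steer in turn gave 0 to 3 members in Charolais, 0 to 1 in Angus and 0 to 1 in KC. Over all miRNAs these refits called 5 to 10, 5 to 10 and 2 to 13. Between Charolais families, DESeq2 and the likelihood-ratio test gave 2 members, beside 10 and 11 of all 371 miRNAs. Leaving out a steer of family 3 gave 0 members, beside 0 to 2 of all miRNAs. The cause of these changes was not tested. Expressed members at 1 count or more were 106, 111 and 119 in the 3 breeds, 144 in any and 85 in all. With at least 1 CPM in 10 of 20 steers they were 20, 20, 21, 22 and 19, and thinning left 40 in any breed.

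With the running number of the titles as a replicate block, 0 members were called between breeds, as without it. The numbers do not pair the steers: same-numbered steers had a median correlation of deviations of -0.000947, and 13 of 60 pairs exceeded 0.1. Within a breed no paired analysis was possible because each number occurs once. Depth limits members under about 1 CPM, where 3 counts stand for 0.444 to 1.55 CPM.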
